A study of Drosophila melanogaster with 6 samples.

Results

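The genes of the fourth chromosome of Drosophila melanogaster were followed in whole larvae that lack HP1B. They were chosen by symbol: 42 genes of this chromosome were listed, and the rows of the deposited expression table that carry one of these symbols were taken. Of the 42 symbols, 40 had a row among the 16662 rows of the table, and 37 of these reached a mean of 1 FPKM over the 6 libraries and were tested together with the other rows at that level, 10986 in all. FPKM is a level per transcript length and per library. The reference annotation placed all 42 genes on chromosome 4, which is the property they were listed for. The data measure RNA, so whether these genes lie in heterochromatin was not examined.

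Total RNA came from whole larvae of the third instar. The control strain, yw, carries the y and w markers. The mutant stocks are homozygous for HP1b16 or for HP1b86, alleles in which imprecise excision of a P element deleted part of HP1b, and both were backcrossed into yw. Each genotype is 1 stock with 2 libraries. The titles of the yw and HP1b16 libraries begin with the strain name, and those of both HP1b86 libraries begin with a code. What the code stands for is not stated, so any difference in handling that it marks cannot be told apart from genotype. Whether the libraries come from separate batches of larvae is not stated anywhere, and every p-value therefore reflects only how much these samples varied, which may be technical. Because whole larvae were used, fewer cells of a type and less RNA per cell cannot be told apart.

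The fourth chromosome is the smallest chromosome of the fly. Its banded arm carries ordinary genes, yet it is packed with repeats and coated by heterochromatin proteins. The HP1a gene acts there together with the histone methyltransferase egg and its partner wde, and Pof encodes a protein that coats this chromosome and raises the output of its genes. HP1B is a relative of HP1a that is found in euchromatin as well as in heterochromatin. Many genes of the chromosome encode developmental regulators with long introns, among them both Pax6 genes of the fly.

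HP1b itself stood at 22.8 and 24.2 FPKM in yw, 2.55 and 3.13 FPKM in HP1b16, and 0.121 and 0.0403 FPKM in HP1b86. These levels match the label of every library. According to the study, the HP1b16 stock makes an aberrant RNA at this locus, and neither allele makes full-length HP1b mRNA or functional protein. Across all tested rows the pooled SD between libraries of a genotype, on the log2(FPKM + 1) scale, was 0.290 in yw, 0.322 in HP1b16 and 0.750 in HP1b86. By correlation on this scale, HP1b86 replicate 2 was at 0.887 to 0.913 with every other library. HP1b86 replicate 1 was at 0.958 and 0.962 with the HP1b16 libraries and at 0.806 and 0.851 with the yw libraries. Of all rows, 23.6% differed more than 2-fold between both HP1b86 libraries. The listed chromosome 4 genes differed less, with pooled SDs of 0.192, 0.124 and 0.230 and with 1 of 37 genes, JYalpha, more than 2-fold apart in HP1b86.

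The listed genes spanned a wide range of levels, with a median of 19.1 FPKM. The highest were Rad23, at 94.1 to 118 FPKM over the 6 libraries, and Arf102F, at 78.2 to 133 FPKM. The adaptor gene Crk followed, at 64.8 to 77.9 FPKM. At the other end stood 3 transcription factor genes under 1 FPKM in every library: sv, a Pax2 gene, at 0.390 to 0.591 FPKM, fd102C, a forkhead gene, at 0.298 to 0.573 FPKM, and fuss, a Ski/Sno family gene, at 0.195 to 0.40 FPKM. They were not tested. No row was found under the symbols Gat and dati, which are described last.

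**Figure D1:**
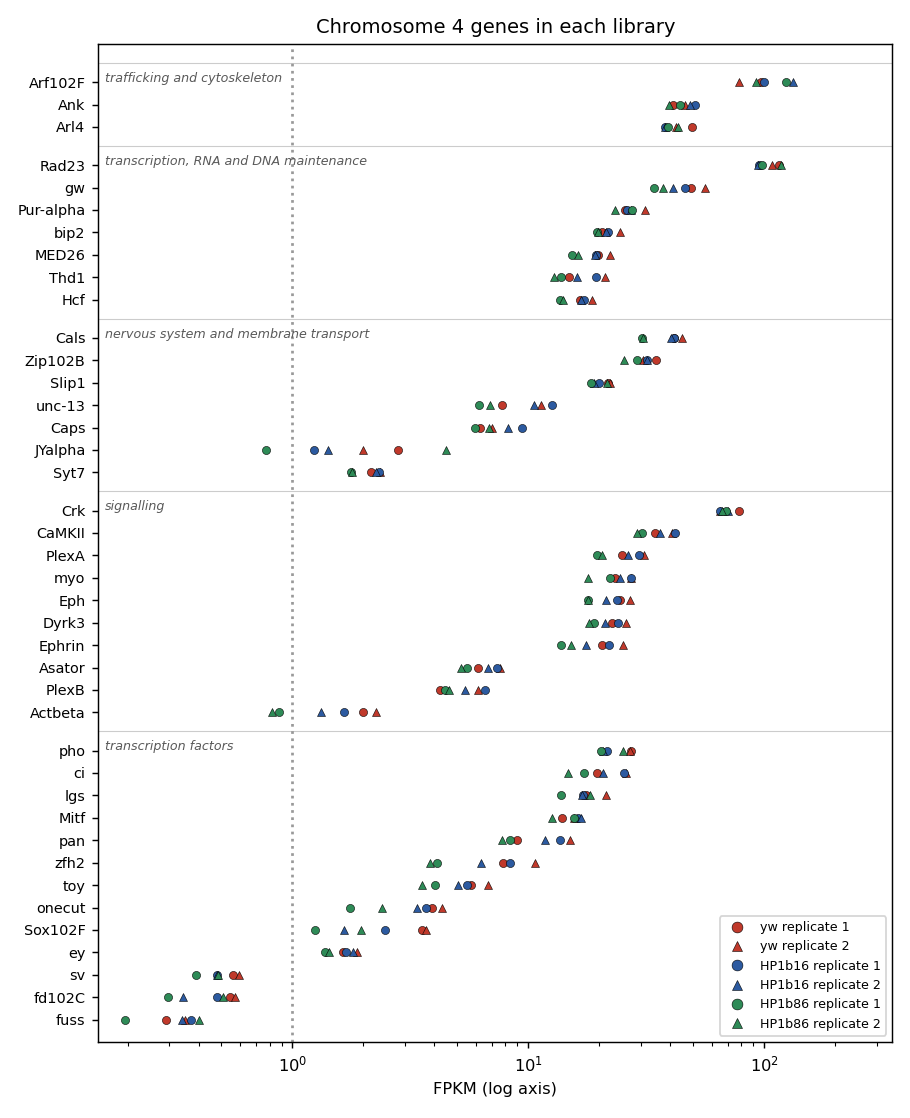
Level of each of the 40 listed chromosome 4 genes with a row, in FPKM on a log axis, with 1 point per library. Colour gives the genotype, the shape gives the replicate, and the dotted line marks 1 FPKM. For most genes the points of all 6 libraries lie close together, and for zfh2, onecut, toy and Actbeta both HP1b86 points lie left of all the others.

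None of the 37 chromosome 4 genes tested under their listed symbols passed an adjusted p of 0.05 in any comparison with limma, a linear model with moderated variances (Benjamini-Hochberg adjustment over all 10986 rows). Gat, which was found under an older name and is not among the 37, passed in the average of the mutants and is described last. In HP1b16 against yw 0 of 37 passed, beside 0.0182% of all rows. In HP1b86 against yw 0 of 37 passed, beside 4.03%, and for that average (the mean of HP1b16 and HP1b86 against yw) 0 of 37 passed, beside 6.38%. In HP1b16 against HP1b86 0 of 37 passed, beside 0.0091%. With HP1b86 replicate 2 left out, 7 of 37 passed in HP1b86, beside 42.6% of all rows, and 6 of 37 in the average of the mutants, beside 46.0%. With HP1b86 replicate 1 left out, JYalpha passed between the mutants, beside 18.3% of all rows. Both mutants are compared with the same yw libraries, so their values below are given side by side.

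At an unadjusted p under 0.05, 0 of 37 genes were counted in HP1b16 in either direction, while 23.7% of all rows were. With HP1b16 and yw fitted alone the count was 4, beside 43.6%, and with quantile normalization it was 5, beside 23.4%. In HP1b86, 13 of 37 were lower and 0 were higher, beside 12.7% and 17.4% of all rows. The 13 were the transcription factor genes toy, zfh2, Sox102F and onecut, the signalling genes Actbeta, Ephrin, Eph, PlexA and Dyrk3, the membrane protein gene Cals, and gw, MED26 and Hcf. In the average of the mutants 9 of 37 were lower, beside 12.7% of all rows, and all 9 were among these 13. These counts are without adjustment for the number of rows, and they changed with the library left out. In HP1b86 the count dropped most without yw replicate 2, and it did not drop without yw replicate 1. Without yw replicate 2, the count in HP1b86 was 2 of 37 in either direction, beside 16.4% of all rows, and without HP1b86 replicate 1 or 2 it was 10 or 13, beside 39.5% or 54.0%. In the average of the mutants it was 0 without yw replicate 2, 1 without HP1b16 replicate 2, 3 without yw replicate 1 and 6 without HP1b16 replicate 1, beside 16.3%, 18.9%, 13.6% and 25.2% of all rows.

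The direction in HP1b86 was nearly uniform. The fold change was below 0 for 36 of 37 genes, with Arf102F as the exception, while 50.5% of all rows were below 0. Their median log2 fold change was -0.32, with quartiles of -0.48 and -0.15, against a median of 0.00 over all rows. Both HP1b86 libraries lay below both yw libraries for 26 of 37 genes, beside 26.1% of all rows, and above both for 0 of 37, beside 31.7%. With either HP1b86 library left out, the median was -0.34, but the median of all rows was then 0.16 without replicate 1 and -0.11 without replicate 2. The difference from all rows was thus -0.50 and -0.24, and without yw replicate 1 or 2 it was -0.50 and -0.18, against -0.32 with all libraries. With 1 yw or HP1b86 library left out, the number below 0 was 32 to 34 of 37, beside 37.7% to 56.2% of all rows.

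In HP1b16, with the FPKM as deposited, the listed genes did not share a direction. The fold change was below 0 for 24 of 37 genes, beside 59.2% of all rows. The median of the listed genes was -0.07, beside -0.10 over all rows. With median-ratio scaling it turned to 0.04, and 15 of 37 were below 0, beside 50.4% of all rows. With quantile normalization 28 of 37 were below 0, beside 61.2%. Rescaled to a common sum (TPM), 34 of 37 were, beside 72.5%. Both HP1b16 libraries lay below both yw libraries for 14 genes, beside 46.0% of all rows. They lay above both for 4 genes, Mitf, Caps, Ank and Arf102F, beside 30.1% of all rows. In the average of the mutants, 32 of 37 genes were below 0, beside 57.3% of all rows, and all 4 mutant libraries lay below both yw libraries for 10 genes, beside 19.8%.

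The library values show how large the control spread is beside these differences. As the median over the 37 genes of the log2 difference from the yw mean, the yw libraries stood at -0.09 and 0.09, the HP1b16 libraries at -0.05 and -0.10, and both HP1b86 libraries at -0.34. Over all rows these medians were 0.02 and -0.02 in yw, -0.09 and -0.11 in HP1b16, and -0.11 and 0.16 in HP1b86. The yw libraries themselves differed in the same way for most of the list. Of the 37 genes, 30 were lower in yw replicate 1 than in yw replicate 2, beside 4667 of all 10986 rows. Against yw replicate 2 alone, the HP1b86 median was -0.43, and against yw replicate 1 alone it was -0.23. Summed over the listed genes, the level was 918.5 and 960.4 FPKM in yw, 918.3 and 905.8 FPKM in HP1b16, and 812.3 and 802.9 FPKM in HP1b86. These sums rest mostly on the most abundant genes, and the HP1b86 libraries lay below the other 4.

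The scale of the libraries moves with this result. The deposited FPKM of the yw libraries sum to 657936 and 654430, those of HP1b16 to 768520 and 778651, and those of HP1b86 to 1132181 and 874571. Rescaled to a common sum (TPM), the median of all rows in HP1b86 moved from 0.00 to -0.53, and the median of the listed genes was -0.89, which is 0.37 lower than that of all rows. With that scaling 18 of 37 listed genes passed the adjusted threshold, beside 18.9% of all rows.

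**Figure D2:**
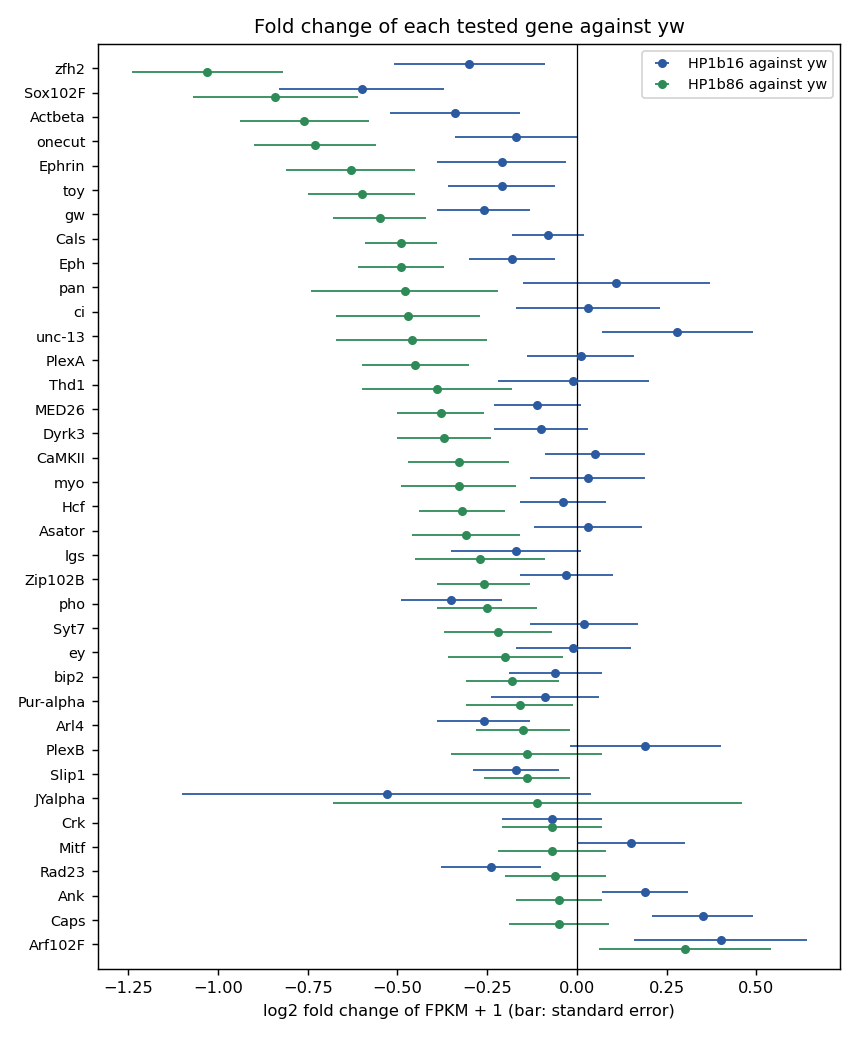
Log2 fold change of FPKM + 1 against yw for the 37 tested chromosome 4 genes, in HP1b16 (blue) and HP1b86 (green), ordered by the HP1b86 value. Bars are standard errors from limma with 2 libraries per genotype. All HP1b86 points but that of Arf102F lie left of 0, and the HP1b16 points lie on both sides of it.

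Among the transcription factors, zfh2 had the lowest HP1b86 value. It encodes a large zinc finger and homeodomain protein of the nervous system and the proximal wing. Its level was 7.82 and 10.7 FPKM in yw, 8.35 and 6.29 FPKM in HP1b16, and 4.12 and 3.83 FPKM in HP1b86. Both HP1b86 libraries were below the other 4, and the HP1b16 libraries overlapped yw. The log2 fold change was -1.03 in HP1b86 (standard error, SE, 0.21, 95% interval -1.60 to -0.47, limma adjusted p = 0.068) and -0.30 in HP1b16 (SE 0.21, limma adjusted p = 0.483). In the reference annotation zfh2 overlaps Thd1, which the table lists in a separate row.

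Sox102F, a SoxD factor gene, was lower in both mutants. It stood at 3.56 and 3.67 FPKM in yw, 2.47 and 1.66 FPKM in HP1b16, and 1.25 and 1.95 FPKM in HP1b86. All 4 mutant libraries were below both yw libraries, and the mutants overlapped each other. The log2 fold change was -0.60 in HP1b16 (SE 0.23, limma adjusted p = 0.211) and -0.84 in HP1b86 (SE 0.23, limma adjusted p = 0.0977).

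The gene onecut, expressed in neurons and photoreceptors, stood at 3.90 and 4.31 FPKM in yw, 3.69 and 3.39 FPKM in HP1b16, and 1.76 and 2.40 FPKM in HP1b86. The 3 genotypes did not overlap, and the HP1b86 libraries were the lowest. Its log2 fold change was -0.17 in HP1b16 and -0.73 in HP1b86 (SE 0.17 in each, limma adjusted p = 0.604 and 0.0784).

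The Pax6 genes of the fly, toy and ey, both direct eye development. For toy the level was 5.74 and 6.77 FPKM in yw, 5.49 and 5.04 FPKM in HP1b16, and 4.04 and 3.54 FPKM in HP1b86. The genotypes again did not overlap, with a log2 fold change of -0.21 in HP1b16 and -0.60 in HP1b86 (SE 0.15 in each, limma adjusted p = 0.482 and 0.0854). For ey the level was 1.64 and 1.88 FPKM in yw, 1.69 and 1.80 FPKM in HP1b16, and 1.37 and 1.43 FPKM in HP1b86, and the log2 fold change in HP1b86 was -0.20 (95% interval -0.62 to 0.22).

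The Hedgehog effector ci had a log2 fold change of 0.03 in HP1b16 and -0.47 in HP1b86, and the Wingless effector pan had 0.11 and -0.48. The yw libraries of pan differed, at 8.97 and 15 FPKM, and its HP1b86 libraries were at 8.33 and 7.75 FPKM. The Wingless co-activator lgs had -0.17 and -0.27. Mitf, a regulator of lysosomal genes, was between 12.6 and 16.7 FPKM in all libraries. The gene pho, which encodes a DNA-binding Polycomb group protein, stood at 27.2 and 27.1 FPKM in yw, 21.5 and 20.7 FPKM in HP1b16, and 20.3 and 25.2 FPKM in HP1b86, so that all 4 mutant libraries were below yw. The log2 fold change of pho was -0.35 in HP1b16 and -0.25 in HP1b86 (SE 0.14 in each, limma adjusted p = 0.227 and 0.308). Over the 10 tested transcription factors the median was -0.17 in HP1b16 and -0.48 in HP1b86.

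The signalling genes cover several pathways. Among the ligands, Actbeta encodes an activin of the TGF-beta family. It stood at 2.00 and 2.27 FPKM in yw, 1.66 and 1.32 FPKM in HP1b16, and 0.873 and 0.823 FPKM in HP1b86. The genotypes did not overlap, with the HP1b86 libraries lowest. Its log2 fold change was -0.34 in HP1b16 and -0.76 in HP1b86 (SE 0.18 in each, limma adjusted p = 0.339 and 0.0774), and at these levels the added 1 FPKM makes the fold change smaller than the ratio of the levels. The other TGF-beta ligand of the list, myo, had 0.03 and -0.33.

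Ephrin and Eph encode a ligand and its receptor, used in axon guidance. Ephrin stood at 20.6 and 25.3 FPKM in yw, 22.0 and 17.6 FPKM in HP1b16, and 13.7 and 15.2 FPKM in HP1b86. Eph stood at 24.5 and 26.9 FPKM in yw, 23.7 and 21.4 FPKM in HP1b16, and 18 FPKM in both HP1b86 libraries. For both genes the HP1b86 libraries were below the other 4. The log2 fold change in HP1b86 was -0.63 for Ephrin (SE 0.18, limma adjusted p = 0.103) and -0.49 for Eph (SE 0.12, limma adjusted p = 0.0812).

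The semaphorin receptor gene PlexA stood at 25.0 and 31.0 FPKM in yw, 29.5 and 26.6 FPKM in HP1b16, and 19.6 and 20.6 FPKM in HP1b86. HP1b16 lay within the yw range and HP1b86 below it, with log2 fold changes of 0.01 and -0.45 (SE 0.15 in each). The second semaphorin receptor, PlexB, overlapped yw in both mutants, with 0.19 and -0.14. The kinase genes CaMKII, Dyrk3 and Asator had log2 fold changes of 0.05, -0.10 and 0.03 in HP1b16 and of -0.33, -0.37 and -0.31 in HP1b86. Crk had -0.07 in each mutant (95% interval -0.43 to 0.29 in each). Over the 10 signalling genes the median was -0.03 in HP1b16 and -0.35 in HP1b86.

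Of the genes of the nervous system and of membrane transport, Cals, a calsyntenin gene of neurons, had the smallest SE of the list. It stood at 41.6 and 44.7 FPKM in yw, 41.4 and 40.2 FPKM in HP1b16, and 30.4 and 30.6 FPKM in HP1b86. The HP1b86 libraries were below the other 4, and HP1b16 lay just below yw. The log2 fold change was -0.08 in HP1b16 and -0.49 in HP1b86 (SE 0.10 in each, limma adjusted p = 0.641 and 0.070). In the annotation Cals overlaps sv, which was under 1 FPKM.

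The gene unc-13, needed to prime synaptic vesicles, stood at 7.70 and 11.3 FPKM in yw, 12.6 and 10.6 FPKM in HP1b16, and 6.20 and 6.85 FPKM in HP1b86. The HP1b16 libraries overlapped yw and the HP1b86 libraries lay below it, with log2 fold changes of 0.28 and -0.46 (SE 0.21 in each). It overlaps 3 non-coding genes in the annotation. Caps, listed as Cadps in the reference and needed for release from dense-core vesicles, stood at 6.27 and 7.04 FPKM in yw, 9.43 and 8.17 FPKM in HP1b16, and 5.96 and 6.80 FPKM in HP1b86. HP1b16 was above both other genotypes for Caps, and HP1b86 overlapped yw, with log2 fold changes of 0.35 and -0.05 (SE 0.14 in each). The calcium sensor gene Syt7 had 0.02 and -0.22, the zinc transporter gene Zip102B had -0.03 and -0.26, and Slip1, whose product binds the Slowpoke channel, had -0.17 and -0.14.

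JYalpha, a sodium and potassium pump gene that is needed for male fertility, was the 1 gene of the list with discordant replicates. It stood at 2.79 and 1.99 FPKM in yw, 1.23 and 1.42 FPKM in HP1b16, and 0.775 and 4.48 FPKM in HP1b86. HP1b86 replicate 1 was the lowest library and HP1b86 replicate 2 the highest. The 8 spermatocyte markers moved in the same order at both ends, with summed levels of 266 and 165 FPKM in yw, 119 and 122 FPKM in HP1b16, and 69.6 and 431 FPKM in HP1b86. Their part in the values of JYalpha was not tested. The 95% interval of its log2 fold change in HP1b86 was -1.61 to 1.39.

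The genes for transcription, RNA and DNA maintenance were led by gw, which encodes the GW182 protein of microRNA silencing. It stood at 48.9 and 56.2 FPKM in yw, 46.0 and 41.2 FPKM in HP1b16, and 34.0 and 37.1 FPKM in HP1b86. The genotypes did not overlap, and the log2 fold change was -0.26 in HP1b16 and -0.55 in HP1b86 (SE 0.13 in each, limma adjusted p = 0.323 and 0.0838). The Mediator subunit gene MED26 had -0.11 and -0.38, and Hcf, the gene for host cell factor, had -0.04 and -0.32. The TFIID subunit gene bip2 (Taf3 in the reference) had -0.06 and -0.18, Pur-alpha, which encodes a protein that binds single-stranded nucleic acid, had -0.09 and -0.16, and Rad23, a DNA repair gene, had -0.24 and -0.06. Thd1, the thymine DNA glycosylase gene, shares its row with the non-coding gene CR43958, and this row had -0.01 and -0.39. Over the 7 genes the median was -0.09 in HP1b16 and -0.32 in HP1b86.

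The 3 genes of trafficking and the cytoskeleton had a median of 0.19 in HP1b16 and -0.05 in HP1b86. Arf102F, a small GTPase gene, was the 1 of the 37 genes above 0 in HP1b86, at 97.2 and 78.2 FPKM in yw, 100 and 133 FPKM in HP1b16, and 124 and 92.7 FPKM in HP1b86. Its HP1b86 libraries overlapped yw, and the log2 fold change was 0.40 in HP1b16 and 0.30 in HP1b86 (SE 0.24 in each). The ankyrin gene Ank had 0.19 and -0.05, and the GTPase gene Arl4 had -0.26 and -0.15.

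A direct comparison of the mutants asked whether the alleles differ from each other at these genes. The HP1b16 fold change over HP1b86 was above 0 for 32 of 37 genes, beside 39.3% of all rows. Their median log2 difference was 0.28, beside -0.08 over all rows. Of the 45 other tested rows of chromosome 4, described below, 32 were above 0, with a median of 0.16. By span in the reference annotation, rows off chromosome 4 had medians of -0.15 under 5 kb and 0.10 at 5 to 15 kb. Their medians were 0.18 at 15 to 30 kb and 0.31 over 30 kb. The listed genes had -0.05, 0.28, 0.34 and 0.60 in these classes. Both HP1b16 libraries lay above both HP1b86 libraries for 27 of 37 listed genes, beside 15.9% of all rows. They lay below both for 2, Rad23 and Arl4, beside 18.5%. Of the 45 other rows of the chromosome, 18 lay above both and 5 below both. At an unadjusted p under 0.05, 7 of 37 were higher in HP1b16, beside 3.81% of all rows: zfh2, onecut, Eph, PlexA, unc-13, Caps and Cals. None of the 7 passed after adjustment. In either direction the count was 0 without HP1b16 replicate 1 and 3 without HP1b16 replicate 2, beside 2.22% and 4.59% of all rows, and 7 without HP1b86 replicate 1, beside 31.4%. For unc-13 the log2 difference was 0.74 (SE 0.21, 95% interval 0.18 to 1.30, limma adjusted p = 0.579), and for zfh2 it was 0.73 (SE 0.21, limma adjusted p = 0.579).

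The other genes of the chromosome were set beside the listed ones. Another 45 tested rows were placed on chromosome 4 by the reference annotation, and their median log2 fold change was 0.14 in HP1b16 and 0.11 in HP1b86. In HP1b86 18 of the 45 were below 0, against 36 of 37 listed genes, and 8 of the 45 were lower at an unadjusted p under 0.05, beside the 12.7% of all rows. Their HP1b86 median differed by span in the reference annotation. It was 0.21 for the 21 rows under 5 kb, -0.05 for the 16 rows at 5 to 15 kb, -0.17 for the 6 at 15 to 30 kb and 0.33 for the 2 over 30 kb. Over all 84 tested rows of the chromosome, Gat and dati included, the median was 0.02 in HP1b16 and -0.14 in HP1b86. On the X, 2L, 2R, 3L and 3R the HP1b86 medians were -0.01, -0.02, 0.00, 0.00 and 0.00. The listed genes are named genes with known roles. The others hold such genes too, on both sides of 0 in HP1b86, but also non-coding and unnamed genes. The lists thus differ in more than membership. The difference between them was not tested.

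**Figure D3:**
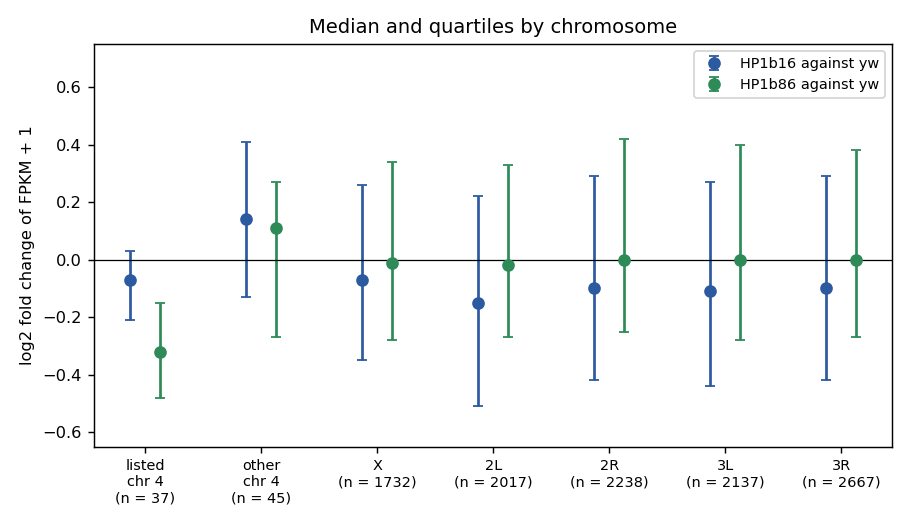
Median (point) and quartiles (bars) of the log2 fold change of FPKM + 1 against yw, for the 37 listed chromosome 4 genes, the 45 other tested genes of chromosome 4, and the tested rows of the 5 other arms. In HP1b86 the listed genes have a median of -0.32 and the other genes of the chromosome one of 0.11, while the arms lie near 0.

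Of these other genes, CG11077 (Mpv17 in the reference, a gene for a membrane protein of mitochondria) passed the threshold. It stood at 14.0 and 12.5 FPKM in yw, 17.8 and 18 FPKM in HP1b16, and 26.9 and 25.4 FPKM in HP1b86. All 4 mutant libraries were above yw, and HP1b86 was above HP1b16. The log2 fold change was 0.93 in HP1b86 (SE 0.11, limma adjusted p = 0.0419) and 0.67 in the average of the mutants (SE 0.10, limma adjusted p = 0.0400).

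The listed genes are spread along the chromosome. The 84 tested rows were cut into 4 runs of 21 by their order in the reference. The listed genes in these runs, 7, 10, 10 and 10 in number, had HP1b86 medians of -0.14, -0.27, -0.47 and -0.35. In HP1b16 their medians were 0.03, -0.05, -0.17 and -0.03.

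**Figure D4:**
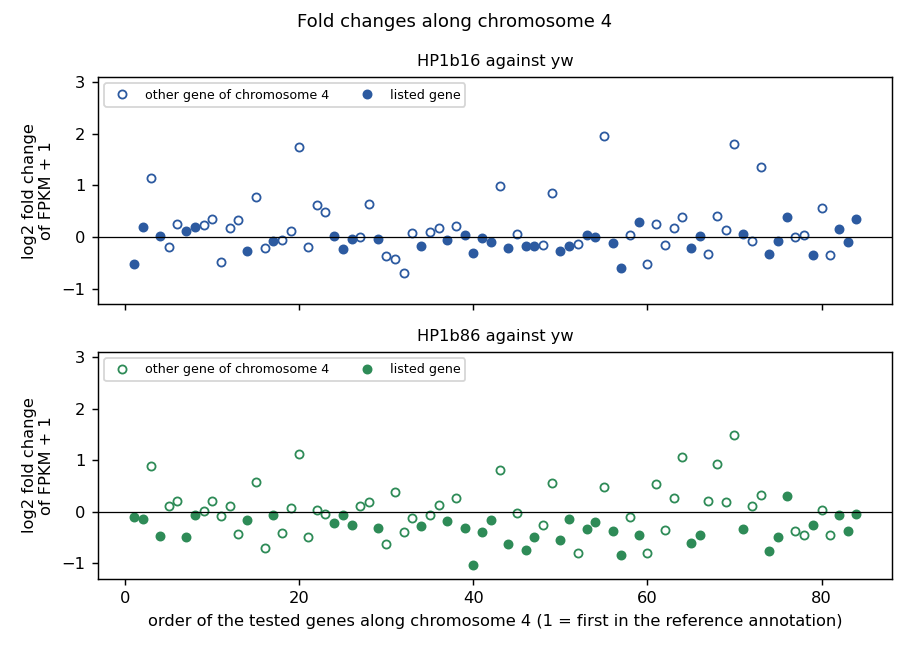
Log2 fold change of FPKM + 1 against yw for the 84 tested rows of chromosome 4 in their order along it, in HP1b16 (top) and HP1b86 (bottom). Filled points are the 37 listed genes and open points the other genes of the chromosome, Gat and dati included. In HP1b86 all filled points but that of Arf102F lie below 0, with medians of -0.14 to -0.47 in its 4 runs, and open points lie on both sides.

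The listed genes are long, and in HP1b86 the fold change went with span in the whole table. Their median span in the reference annotation was 10.5 kb, against 2.24 kb over all tested rows. Among rows off chromosome 4, the HP1b86 median was 0.05 under 5 kb (n = 8095), -0.16 at 5 to 15 kb (n = 1711), -0.32 at 15 to 30 kb (n = 520) and -0.50 over 30 kb (n = 478). The listed genes in the same classes had -0.09 (6 genes), -0.37 (17 genes), -0.32 (9 genes) and -0.48 (5 genes). In both longer classes the medians of the listed genes were close to those of the rows off the chromosome. In both shorter classes the listed genes had the lower median. As a description over genes, which share the same libraries, Spearman's rho of span and HP1b86 fold change was -0.32 over the 37 listed genes and -0.27 over the 10888 placed rows. For HP1b16 against HP1b86 it was 0.56 and 0.50. For HP1b16 against yw it was 0.32 over the listed genes and 0.074 over the placed rows, and for the average of the mutants it was 0.049 and -0.095. The part of span in the result was not tested.

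**Figure D5:**
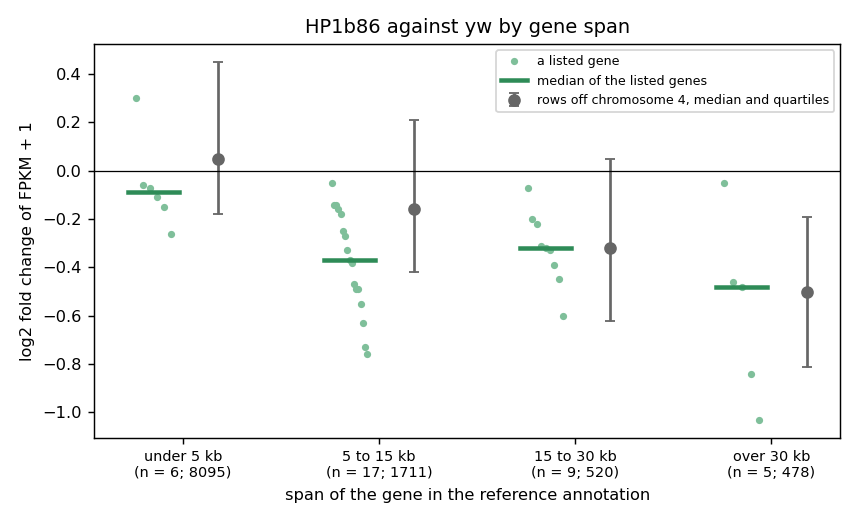
Log2 fold change of FPKM + 1 in HP1b86 against yw by the span of the gene in the reference annotation. Small points are the listed chromosome 4 genes and green bars their medians, and grey points with bars are the median and quartiles of tested rows off chromosome 4. The numbers under each class are listed genes and rows off chromosome 4. Both medians are lower in the longest class, at -0.48 and -0.50, than in the shortest, at -0.09 and 0.05. The medians of the listed genes do not fall at every step, with -0.37 at 5 to 15 kb and -0.32 at 15 to 30 kb.

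Levels of tissue markers were compared in the same way. Many listed genes act in neurons and in the eye, and the 11 of 12 neuronal markers with a row summed to 67.3 and 89.3 FPKM in yw, 71.6 and 61.1 FPKM in HP1b16, and 49.4 and 45.9 FPKM in HP1b86. Of the 10 that were tested, 9 were below 0 in HP1b86, with a median log2 fold change of -0.53, and none passed. The exception was Gad1, at 1.03 and 1.31 FPKM in yw and 2.65 and 1.79 FPKM in HP1b86. The 6 markers of eye and imaginal discs were all below 0 in HP1b86, none past the threshold, with a median of -0.36 and sums of 36.3 and 35.8 FPKM in yw, 33.3 and 27.0 FPKM in HP1b16, and 22.5 and 27.3 FPKM in HP1b86. The 8 muscle markers were all above 0 in both mutants, with medians of 2.36 in HP1b16 and 1.93 in HP1b86 and sums of 1750 and 3070 FPKM in yw, 10900 and 13700 FPKM in HP1b16, and 12200 and 6830 FPKM in HP1b86. Of the muscle markers 0 passed in either mutant alone, and 5 of 8 passed in the average of the mutants. The part of the tissues in the values of the listed genes was not tested.

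The known regulators of the chromosome were measured in the same libraries. The HP1a gene stood at 164 and 153 FPKM in yw, 135 and 134 FPKM in HP1b16, and 148 and 141 FPKM in HP1b86, with both mutants below yw. Its log2 fold change was -0.23 in HP1b16 and -0.13 in HP1b86 (SE 0.11 in each, limma adjusted p = 0.297 and 0.520). Su(var)3-7, which encodes a zinc finger partner of HP1a, had -0.24 and -0.42, and wde had -0.37 and -0.52. Pof followed the same order as JYalpha, at 46.5 and 37.1 FPKM in yw, 24.8 and 25.1 FPKM in HP1b16, and 17.3 and 77.1 FPKM in HP1b86. None of these 4 genes passed the threshold. No value is given for egg, because its row also holds a cuticle gene.

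The 2 listed genes without a row of their own symbol were found under older names that the reference annotation gives as synonyms, a step chosen after the data were seen. The row CG1732 is Gat, the GABA transporter gene of glia. It stood at 2.98 and 3.17 FPKM in yw, 6.88 and 5.82 FPKM in HP1b16, and 5.03 and 4.92 FPKM in HP1b86. All 4 mutant libraries were above yw, against the direction of most listed genes, with log2 fold changes of 0.85 and 0.55 (SE 0.14 in each, limma adjusted p = 0.0735 and 0.0873). In the average of the mutants it was 0.70 (SE 0.12, limma adjusted p = 0.0487), past the threshold. The row Lin29 is dati, a zinc finger gene of neurons, at 2.99 and 3.64 FPKM in yw, 2.48 and 2.2 FPKM in HP1b16, and 1.33 and 2.30 FPKM in HP1b86. Its mutant libraries were all below yw, with log2 fold changes of -0.37 and -0.64 (SE 0.23 in each). With both rows added, the medians of the list stayed at -0.07 in HP1b16 and -0.32 in HP1b86.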

How the data were processed

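RNA-seq was carried out on whole larvae, with 2 libraries for each of 3 genotypes. Per the submitters' processing notes, the tools were bcl2fastq 2.18.0.12, Trim Galore 0.4.1, TopHat2 2.1.1 and Cufflinks 2.2.1, with the dm3 build. The authors deposited FPKM values, 1 per gene and library. The annotation and any scaling between libraries are not given in the sources used here. The methods of the study state a range of reads per sample, but the deposited table holds no read number for a library or gene, so no counting interval is given. The counting of strand is not stated, and 12 of the 42 listed genes overlap another gene in the reference annotation, 5 of them a protein-coding one, so reads of such pairs may not be told apart.

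The analysis used log2(FPKM + 1). Rows averaging 1 FPKM or more, 10986 in number, were fitted in R 4.3.3 by limma 3.58.1, jointly for the 6 libraries, with a mean-variance trend and 1.59 prior degrees of freedom. P-values are two-sided, adjusted by Benjamini-Hochberg over all tested rows, with a threshold of 0.05. Fold changes are on the log2(FPKM + 1) scale and understate low genes. Chromosome, order and span came from the RefSeq Release 6 annotation by symbol or synonym, which placed 10888 tested rows. Since the table was made on another build, no coordinates are given.

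All 42 listed genes are named. Of the other genes of chromosome 4, the 4 with the smallest p in the mean of both mutants are named, with HP1b, Pof, the HP1a gene, Su(var)3-7, egg and wde. The members, the lists and the tests were chosen with earlier results of these data known. The larval fat body markers, on the lists too, are given with the closing observations. Alternatives were the pseudocount, the filter, 3 scalings, each mutant fitted alone, each library left out, a replicate block, rows of several genes left out, and no trend. The procedure was tested on simulated data, in which each row had the same SD in all libraries. The wider spread of HP1b86 was thus not part of that test.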

Additional observations from a re-analysis of the deposited data

How the results depend on the processing

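The number of listed genes past the threshold stayed at 0 in HP1b16 under every alternative run. With HP1b16 and yw fitted alone, where 21.7% of all rows passed, it was still 0. In HP1b86 it was 2 with quantile normalization (Cals and gw, beside 7.54% of all rows) and 18 with TPM, and 0 to 7 with 1 library left out. The 7 came without HP1b86 replicate 2, where 42.6% of all rows passed and HP1b86 replicate 1 is assumed to vary like the other groups. In the mean of both mutants it was 1 with TPM (beside 11.1% of all rows) and 0 to 6 with 1 library left out, the 6 again without HP1b86 replicate 2, where 46.0% of all rows passed. For HP1b16 against HP1b86 it was 0 to 1, the 1, JYalpha, without HP1b86 replicate 1, where 18.3% of all rows passed.

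The median of the listed genes in HP1b16 was 0.04 with median-ratio scaling (0.00 over all rows), -0.16 after quantile normalization (-0.13) and -0.30 as TPM (-0.32), and it ranged from -0.18 to -0.01 with 1 library left out, both ends by leaving out a yw library. In HP1b86 it was -0.53 with quantile normalization and -0.89 with TPM, and -0.43 to -0.23 with 1 library left out. In the mean of both mutants it was -0.33 and -0.58, and -0.27 to -0.09, and without yw replicate 2 its difference from that of all rows was 0.00. The sign of the fold change held under every alternative for 29 of 37 genes in HP1b86 and for 18 of 37 in HP1b16.

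Replicate numbers did not pair the libraries, with correlations of deviations of 0.074, -0.401 and -0.115. With the replicate block, 0 listed genes passed in each comparison, but so did 0.0% of all rows. That count therefore does not set the listed genes apart. The medians stayed at -0.07, -0.32 and -0.19.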

Other observations

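Other genes of chromosome 4 with small p in the average of the mutants stood above yw without passing the threshold. ATPsyn-beta, a subunit gene of the mitochondrial ATP synthase, was at 208 and 210 FPKM in yw, 590 and 909 FPKM in HP1b16, and 869 and 397 FPKM in HP1b86, and the log2 value of the average mutant against yw was 1.65 (SE 0.38, limma adjusted p = 0.0713). CG1674 was at 26.9 and 44.0 FPKM in yw, 110 and 126 FPKM in HP1b16, and 97.0 and 60.3 FPKM in HP1b86, and this log2 value was 1.44 (SE 0.29, limma adjusted p = 0.0589). The non-coding gene CR44440 was at 0.163 and 0.226 FPKM in yw, 1.72 and 1.53 FPKM in HP1b16, and 1.55 and 0.904 FPKM in HP1b86, and the same value was 1.01 (SE 0.20, limma adjusted p = 0.0547). For all 3 genes both mutants lay above both yw libraries.

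Of the 6 larval fat body markers, Fbp2, which shares its row with CG42847, stood at 8100 and 8290 FPKM in yw, 7930 and 8410 FPKM in HP1b16, and 11600 and 6210 FPKM in HP1b86. The other 5 are each listed at exactly 0 in at least 1 library and at a very high level in others. Lsp2 is listed at 0 in both HP1b16 libraries, beside 7600 and 8240 FPKM in yw, and Fbp1 is listed at 0 in both yw libraries. Whether such zeros are failed estimates was not tested, so no sum or fold change of these markers is given. The part of the fat body in the values of the chromosome 4 genes was not tested.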
